A study of Mus musculus with 70 samples.

Results

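The genes for the proteins of the cytosolic ribosome were followed through the bone marrow stages of the mouse from which innate lymphoid cells (ILC) arise. ILC are lymphocytes without rearranged antigen receptors that settle in tissues. A member was any row of both count tables whose Entrez identifier belonged to a protein-coding mouse gene with a symbol of Rpl or Rps and a number, to Rplp0, Rplp1 or Rplp2, or to Rpsa. This took 89 of 27179 genes: 31 proteins of the small (40S) subunit, 46 of the large (60S) subunit, and 12 with matching symbols. Of the 12, 9 were classed as paralogues or retrotransposed copies of subunit genes (Rpl22l1, Rps27l, Rpl3l, Rpl10l, Rpl39l, Rpl36al, Rpl37rt, Rps27rt and Rpl32l). The other 3, kept apart from that class, are Rps19bp1, which encodes a binding partner of Rps19, the Rpl7-like Rpl7l1, and the Rps23 retrogene Rps23rg1. The rule left out 10 genes of the S6 kinase families (Rps6k) and 2 protein-coding genes with pseudogene names.

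Ribosomal proteins assemble with ribosomal RNA in the nucleolus, and dividing progenitors need a steady supply of all of them. Their messenger RNAs typically begin with a cytosine and a run of pyrimidines, the 5′ terminal oligopyrimidine (TOP) motif, through which mTOR signalling sets how strongly they are translated. Blood formation is sensitive to their dosage: loss of Rps19, Rpl5 or Rpl11 function causes Diamond-Blackfan anaemia, and Rpl22 with its paralogue Rpl22l1 is known for roles in early lymphocyte development.

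Each sample held 100 sorted cells and was read by CEL-seq, which counts reads near the 3′ end of polyadenylated transcripts. Wild-type groups were common lymphoid progenitors (CLP, 8 libraries), CLP expressing the integrin α4β7 (5), common innate lymphoid progenitors (CILP, 7), a population labelled ILCP (3) and progenitors of group 2 ILC (ILC2P, 8). Tcf7 knockout (TCF7-/-) groups were CLP (5), CILP (4) and ILC2P (2), and Id2 knockout (Id2-/-) groups were CLP (2), CILP (2) and ILCP (1). Tcf7 encodes the transcription factor TCF-1, and Id2 an inhibitor of E proteins. The labels give no strain, age, treatment or number of animals. They name no sort gate for ILCP, while the design text lists Sca1+ CILP as a remaining population. Libraries carry a batch label for 2 experiments, with 22 of the 47 compared libraries in batch 1 and 25 in batch 2. All Id2 knockout libraries were in batch 1, and both Tcf7 knockout ILC2P libraries were in batch 2.

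The start sites of some of these genes are shown first. Whether any result below goes with a TOP start was not tested. RefSeq promoter entries (build GRCm38.p6) matched 69 of the 89 members. Each line gives the 20 bases before the annotated start and the 10 from the start onward, on the gene's own strand. Capitals mark a run of pyrimidines that spans the start or, where none does, the longest one in the window. The first 3 genes have a C at the start followed by at least 4 pyrimidines. Rps6 encodes the 40S protein that S6 kinases phosphorylate, Rps27 the partner of the paralogue Rps27l, and Rplp2 a protein of the P stalk.
Rps6: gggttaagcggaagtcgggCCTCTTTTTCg
Rps27: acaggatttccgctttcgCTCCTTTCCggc
Rplp2: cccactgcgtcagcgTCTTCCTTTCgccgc
The next 5 were called between wild-type populations (below) and lack that start at the annotated base.
Rps27l: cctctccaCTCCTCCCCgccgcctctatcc
Rpl31: cacctcttcctcctcgCCTCCCCgtgaccc
Rps26: agcgggtcgggcaagccgccggaTCCTCTT
Rpl7a: ccacaaTTCCCTCTTCTTTCTTTCTCCagc
Rplp0: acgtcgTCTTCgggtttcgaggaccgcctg

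These windows lie at chr4:86857358-86857387 on the minus strand for Rps6, chr3:90213639-90213668 on the minus strand for Rps27 and chr7:141447631-141447660 on the plus strand for Rplp2. Those of the called genes lie at chr9:66946066-66946095 (plus) for Rps27l, chr1:39367831-39367860 (plus) for Rpl31, chr10:128626497-128626526 (minus) for Rps26, chr2:26910787-26910816 (plus) for Rpl7a and chr5:115559447-115559476 (plus) for Rplp0. Rps27l has another entry with its own start, and the window shown is the upstream one of these entries, inside the annotated span of the gene. The Rpl7a window also lies inside the annotated span of its gene (chr2:26910685-26913312). A C at the start followed by 4 pyrimidines stood in an entry of 15 members (21.7%) and of 3.01% of all 27025 genes with an entry. The letters CCGGAA on either strand, the core of an ETS factor motif, stood within the 250 bases before to 50 after the start of 36 members (52.2%) and of 16.7% of all genes. TATAAA on either strand stood there in 8 members (11.6%) and 15.7% of genes. Start sites are as annotated, so an absent letter string says only that it is not in that window.

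Total counts ran from 19322 to 624668 per library (median 134985), and 61 to 74 members had a count in a wild-type library of batch 1 and 58 to 88 in one of batch 2. No molecular identifiers are stated, so intervals cover counting error only: for the summed member share of a library, the 95% Wilson half-width was 0.0501 to 0.273 percentage points. The libraries of a group are not said to be from different animals, so the p-values reflect the spread between samples, which may be technical. Fewer cells of a type and less RNA per cell cannot be told apart in these bulk samples. Tcf7 was at 166.2 to 779.2 CPM (counts-per-million) in the 7 wild-type CILP libraries and at 0 to 63.39 CPM in the 4 Tcf7 knockout CILP libraries. Id2 was at 79.63 to 2286 CPM in wild-type CILP and at 27.13 and 116.4 CPM in Id2 knockout CILP, which overlap. In CLP neither gene can check the labels, since Tcf7 had 1 count over the 8 wild-type libraries and Id2 had counts in 2 of them. Nor can Tcf7 in ILC2P, with counts in 3 of 8 wild-type libraries (up to 61.84 CPM) and 1 of 2 knockout libraries (53.38 CPM). The Id2 knockout ILCP library had Id2 at 130.6 CPM, within the 12.12 to 1228 CPM of wild-type ILCP. The sources used here do not give the deleted part of either gene. The 6 genes fixed as CLP markers made up 0.8842 to 1.738% of wild-type CLP counts and 0.1308 to 0.2769% in CILP. The 6 ILC2P markers made up 0.3157 to 1.015% in ILC2P and 0.004876 to 0.06204% in CLP. In the libraries labelled ILCP the ILC2P markers were at 0.432 to 0.8927% and the CLP markers at 0.1608 to 0.3662%. CPM values are not divided by gene length.

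Member transcripts made up 5.77 ± 1.02% of all gene counts in wild-type libraries (SD, n = 31, range 3.349 to 7.429%). By population, the wild-type mean was 6.146 ± 0.957% in CLP (n = 8), 5.022 ± 0.8819% in α4β7+ CLP (n = 5), 6.173 ± 0.8609% in CILP (n = 7), 5.109 ± 1.226% in ILCP (n = 3) and 5.763 ± 1.072% in ILC2P (n = 8). The 5 ranges overlapped. The mean of α4β7+ CLP minus that of CLP was -1.124 percentage points (pooled SD 0.9304), with -0.03112 points in batch 1, -1.814 points in batch 2 and -0.7401 points without α4β7+ CLP replicate 2. The mean of ILCP minus that of CILP was -1.064 points (pooled SD 0.9653), and 1 ILCP library, replicate 1 at 3.708%, had 1.1945% of its counts in erythroid and megakaryocyte genes. Without it the difference was -0.3632 points. CILP minus CLP was 1.112 points in batch 1 and -0.7011 points in batch 2, so that the pooled means differed by 0.02673 points. No test was run on these shares because the members are a chosen list.

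**Figure D1:**
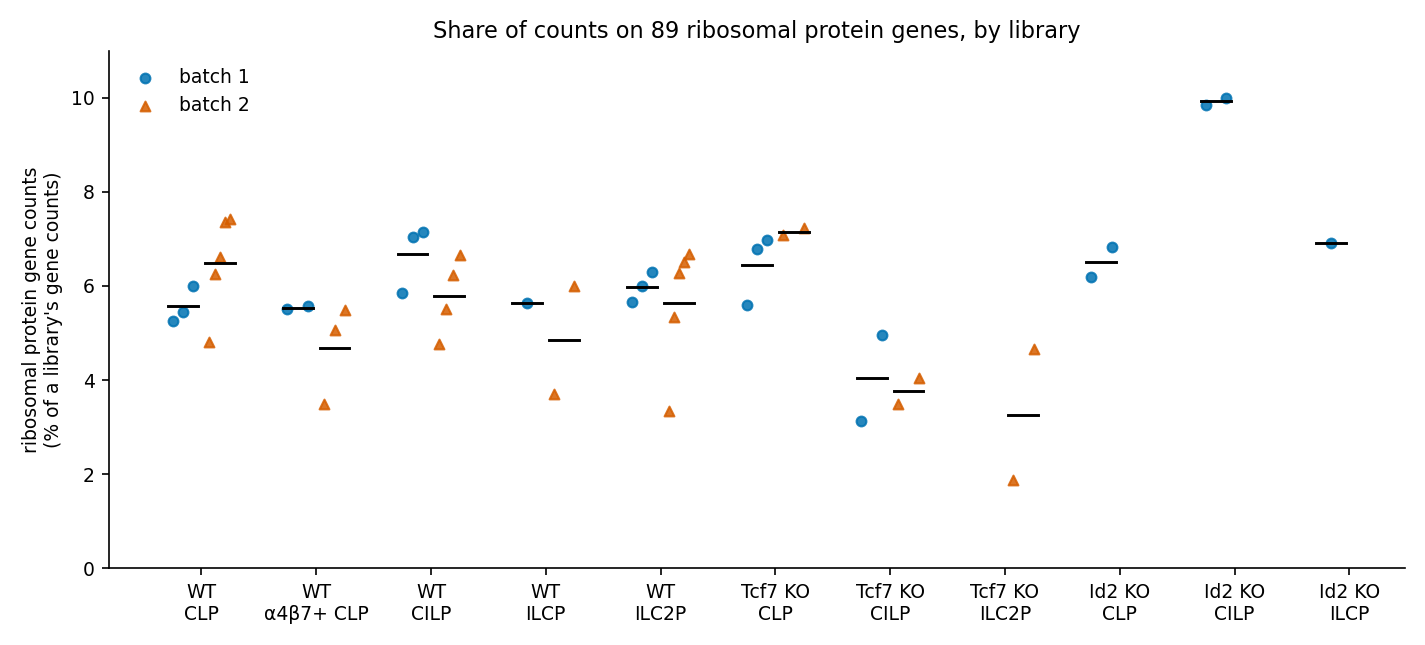
Summed counts of the 89 ribosomal protein genes as a percentage of all gene counts (y axis) in each of the 47 compared libraries, by population and genotype (x axis); points are libraries, marked by batch, and bars are group means per batch. Wild-type libraries lie between 3.349 and 7.429%, the Id2 knockout CILP libraries near 10%, and the Tcf7 knockout CILP libraries between 3.134 and 4.947%.

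Beneath the similar summed shares, the composition differed between the batches. In wild type the 40S proteins made up 3.424 ± 0.3568% of counts in batch 1 (n = 12) and 2.011 ± 0.4912% in batch 2 (n = 19), while the 60S proteins made up 2.392% and 2.79%. The ratio of 60S to 40S counts was 0.7005 ± 0.06765 in batch 1 and 1.414 ± 0.1458 in batch 2. Its ranges of 0.5944 to 0.8123 and 1.091 to 1.702 did not overlap, and each of the 5 wild-type populations was split in this way. The 9 paralogues and copies made up 0.1246% of counts in batch 1 and 0.7967% in batch 2. The retrogene Rps23rg1, not among these 9, averaged 4.64 CPM in wild-type batch 1 and 503.03 CPM in batch 2.

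Of the 86 members that passed the filter on low counts, 39 were called higher and 24 lower in batch 2, in the batch term of the edgeR quasi-likelihood fit over all 47 libraries (Benjamini-Hochberg adjusted p under 0.05). Over all 10972 genes tested, 8.27% were called higher and 8.06% lower. The filter removed Rpl3l, Rpl10l and Rpl13. The median absolute batch difference was 2.306 on the log2 scale over the tested members and 0.841 over all genes tested, and 48 of the 86 members against 14.3% of all genes differed by over 4-fold. This comparison was chosen after its values were seen. The count of members called stayed between 61 and 65 when each library was left out in turn.

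Several core genes were near 0 in one batch and abundant in the other. Rpl32, a 60S protein, averaged 2.02 CPM in wild-type batch 1 and 2070.58 CPM in batch 2 (log2 difference 9.45 ± 0.43 SE, adjusted p 2.75e-38 in edgeR). Rpl39, at the exit of the peptide tunnel, had 0 counts over the 12 wild-type libraries of batch 1, while the 19 libraries of batch 2 held 34.53 to 658.47 CPM. Rplp0, the base of the P stalk, reached 73.16 CPM at most in batch 1, and its batch 2 libraries spanned 506.65 to 5810.84 CPM. No wild-type library of one batch reached the other's range in these 3 genes. In the opposite direction, Rpsa, the laminin receptor homologue of the 40S subunit, spanned in wild type 1680.79 to 4230.84 CPM in batch 1 and reached 98.01 CPM at most in batch 2 (log2 difference -5.48 ± 0.28 SE, adjusted p 9.28e-34). Rpl10, which sits near the peptidyl transferase centre, spanned 226.49 to 738.06 CPM in wild-type batch 1 and reached 130.83 CPM at most in batch 2. Its paralogue Rpl10l had 3 counts in wild type, all in batch 2.

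Some abundant members were not called between batches. Rpl8, Rplp1 and Rps3 were the members among the 10 highest in both batches, with batch differences of 0.08 ± 0.17, 0.03 ± 0.40 and 0.36 ± 0.18 on the log2 scale (SE), none of which was called. In all, 30 of the 89 members had wild-type ranges that did not overlap between batches, 16 of them higher in batch 1 and 14 higher in batch 2. The matching count over all genes was not made, so this count does not set the members apart from genes at large. In batch 1, 5 members had 0 wild-type counts. Across the 89 members the rank correlation of mean CPM between batches was 0.334 (Spearman). The points share library preparation and depth within a batch, so this is a description. RefSeq names a pseudogene for 63 members, and rows of ribosomal protein pseudogenes held 0.07419% of wild-type counts in batch 1 and 0.2505% in batch 2. Across the 86 tested members the number of named pseudogenes and the batch difference had a rank correlation of -0.128. The labels split the batches by experiment and count table. Column names of batch 1 also carry a "trimmed" tag that those of batch 2 lack. What in the preparation or counting goes with the change of composition was not tested.

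**Figure D2:**
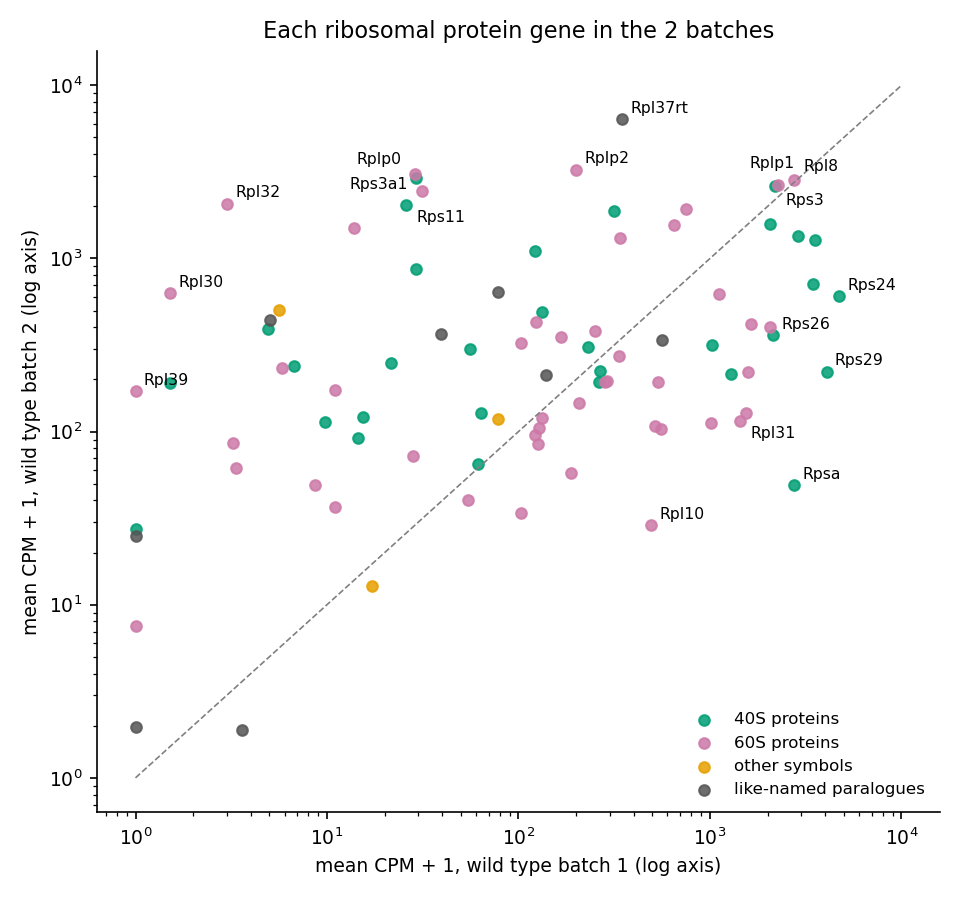
Mean CPM + 1 of each of the 89 members in the 12 wild-type libraries of batch 1 (x axis, log scale) and the 19 of batch 2 (y axis, log scale), coloured by subunit, with the line of equal means. Rpl32, Rpl30, Rplp0 and Rps3a1 lie far above the line, Rpsa, Rpl10 and Rps29 far below it, and Rpl8, Rplp1 and Rps3 near it.

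Levels of single members were compared between populations only with the batch term in the model, and values are given within each batch. Counts of members by sign, or at an unadjusted p, are given without the matching share over all genes unless it stands beside them. Such counts do not set the members apart from genes at large. Over all wild-type libraries the 6 members with the highest mean were Rpl37rt (4045.43 CPM), Rpl8 (2801.81), Rplp1 (2519.89), Rps3 (2454.24), Rps24 (2194.81) and Rps20 (2149.48), and the lowest tested were Rps4x (16.12), Rpl39l (14.62) and Rps19bp1 (13.52). Since no molecular identifiers are stated, these values do not rank transcripts by molecules. CPM in batch 2 also placed the retrotransposed copy Rpl37rt highest of all members, at 6381.19 CPM in wild type against 193.38 CPM for Rpl37, and the corresponding means in batch 1 were 347.14 and 531.82 CPM. Rps27rt averaged 77.4 CPM in batch 1 and 637.13 CPM in batch 2, and Rps27 5.73 and 237.52 CPM. Reads of a copy and its parent gene are near-identical, so how they were split between each such pair is uncertain.

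Between wild-type CLP and CILP the pooled median of the members was near 0, and the batches differed in sign. The median difference was -0.01 on the log2 scale over 86 members and 0.07 over all genes, with 42 members higher and 44 lower in CILP. In batch 1 alone it was 0.14 over members and -0.10 over all genes, and in batch 2 alone -0.13 and 0.09. Rpl31, a 60S protein near the tunnel exit (chr1:39367851-39371911), was the 1 member called, lower in CILP, where 2.34% of genes were called higher and 1.97% lower. It was at 1900.3, 2033.4 and 1718.4 CPM in CLP and at 1068.5, 1412.6 and 1170.6 CPM in CILP of batch 1. In batch 2 it was at 490.8, 119.3, 181.0, 236.9 and 92.0 CPM in CLP and at 59.5, 66.4, 111.1 and 48.2 CPM in CILP. CILP lay below CLP without overlap in batch 1, and overlapped in batch 2 through 1 CILP library at 111.1 CPM. The log2 difference was -1.29 ± 0.41 (SE), with an edgeR adjusted p of 0.0494. That call was lost without CLP replicate 1, 3, 4 or 7 or CILP replicate 2, 3, 5, 6, 7 or 8 (adjusted p 0.0554 to 0.206), and in either batch alone.

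Between wild-type CLP and α4β7+ CLP no member was called, where 0.0456% of all genes were. No member reached an unadjusted p under 0.05 in edgeR either, or was called by DESeq2. The members' median was -0.29 on the log2 scale with 61 of 86 lower in α4β7+ CLP, and that of all genes was 0.07.

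Between wild-type CILP and ILC2P, 3 members were called lower in ILC2P and 1 higher, where 4.22% of all genes were called lower and 1.10% higher. Among 86 members these counts are near the shares over all genes. The members' median was -0.42 on the log2 scale against -0.55 for all genes, and 69 of 86 members were negative. With DESeq2 size factors or plain library totals in place of TMM scaling, the median of all genes moved by 0.32 and 0.26. The split of all calls then went from 121 higher and 463 lower to 160 and 231, or 162 and 279, and the members' median was 0.22 and 0.23 above that of all genes, against 0.13 with TMM. In batch 1 alone it was below that of all genes (-0.12). The called members were Rplp0, Rps27l, Rps26 and Rpl7a. Against CLP, 6 members fell in ILC2P, among them Rpl31, Rpl37rt, Rps27l, Rplp0 and Rps26, and Rpl7a rose. Over all genes 8.0% were called lower and 3.46% higher, so both counts are smaller shares of the 86 members. The median of the members was -0.48 and that of all genes -0.43. Both comparisons share the 8 ILC2P libraries. DESeq2 size factors or library totals moved the second median by 0.25 and 0.26, and the split from 380 higher and 878 lower to 492 and 608, or 479 and 603. The ILC2P libraries held 19322 to 80873 counts, below every CLP library (81976 to 246119), while CILP libraries held 42266 to 624668. The same CPM in ILC2P thus rests on fewer counts than in CLP. The part of depth in these calls was not tested beyond leaving out shallow libraries.

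Rps27l (chr9:66944624-66949522), a paralogue of Rps27 known as a target of p53, was lower in ILC2P than in both other populations. In batch 1 it was at 144.2, 140.4 and 99.1 CPM in CLP, 178.1, 272.7 and 54.9 CPM in CILP, and 35.8, 0 and 0 CPM in ILC2P. In batch 2 it was at 92.0, 101.4, 411.0, 539.0 and 317.6 CPM in CLP, 334.6, 121.3, 602.9 and 110.2 CPM in CILP, and 0, 100.2, 106.7, 57.5 and 103.7 CPM in ILC2P. ILC2P libraries lay below both other populations without overlap in batch 1 and below CILP without overlap in batch 2, where 3 of 5 exceeded the lowest CLP library. The log2 difference was -2.40 ± 0.66 against CILP (edgeR adjusted p 0.0196) and -2.24 ± 0.64 against CLP (adjusted p 0.0138). The call against CLP held when each library was left out in turn (adjusted p up to 0.036). That against CILP was lost without CILP replicate 4 (-2.11, adjusted p 0.0567). In batch 2 alone neither held (adjusted p 0.25 and 0.172), nor did that against CILP with DESeq2 size factors (0.0545) or library totals (0.0531). Rps27 itself was not called in any comparison of populations or genotypes.

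Rpl31 fell against CLP in ILC2P as well. Its ILC2P values were 1347.0, 618.4 and 843.7 CPM in batch 1 and 34.5, 25.1, 0, 0 and 59.3 CPM in batch 2. These lie below every CLP library of the same batch given above. The log2 difference was -2.05 ± 0.43 (edgeR adjusted p 0.000329). It remained called whichever library was left out (adjusted p up to 0.00334) and with DESeq2, but in batch 1 and batch 2 alone its adjusted p was 0.068 and 0.0863, and without the batch term 0.498.

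Rplp0 (chr5:115559467-115563729) had enough counts to compare in batch 2 alone (batch 1 is given above). It was at 3512.0, 4787.9, 5298.7, 4083.7 and 2390.7 CPM in CLP, 5810.8, 5502.0, 4268.2 and 2630.4 CPM in CILP, and 1864.4, 2130.0, 506.7, 992.7 and 815.1 CPM in ILC2P. Every ILC2P library lay below every CLP and CILP library of that batch. The fitted log2 difference was -1.63 ± 0.44 against CILP (adjusted p 0.0169) and -1.46 ± 0.42 against CLP (adjusted p 0.0147) in edgeR. The latter was lost without ILC2P replicate 3 (-1.23, adjusted p 0.0515), and each call was lost under 7 of 11 other settings of the fit.

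Rpl37rt fell by 1.13 ± 0.29 on the log2 scale in ILC2P against CLP (edgeR adjusted p 0.00565). It was at 107.3, 333.9 and 173.7 CPM in ILC2P of batch 1 and at 500.5, 494.6 and 418.6 CPM in CLP. In batch 2 it was at 1415.5, 3884.0, 3733.2, 6646.8 and 4282.9 CPM in ILC2P and at 3826.4, 7178.9, 10166.9, 10495.1 and 11017.3 CPM in CLP. The groups did not overlap in batch 1 and overlapped through the lowest CLP library in batch 2. The call was lost under 5 of 11 other settings of the fit, among them either batch alone (adjusted p 0.215 and 0.066) and library totals (0.0541). As said above, its reads are hard to tell from those of Rpl37, which was not called.

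Rps26, a 40S protein at the messenger RNA exit (its window is shown above), fell by 1.07 ± 0.33 against CILP (adjusted p 0.0393) and by 0.97 ± 0.33 against CLP (adjusted p 0.0383) on the log2 scale in edgeR. In batch 2 its 5 ILC2P libraries were at 207.2, 162.9, 106.7, 187.0 and 163.0 CPM, below the lowest CILP library (295.8 CPM) and the lowest CLP library (371.8 CPM). In batch 1 the populations overlapped, with ILC2P at 2014.6, 1434.6 and 2221.0 CPM and CLP at 1849.4, 1984.6 and 2269.1 CPM. The ranges were thus apart in batch 2 and overlapped in batch 1. Other settings of the fit ended the call against CILP in 10 of 11 cases and that against CLP in 9 of 11, DESeq2 among them (adjusted p 0.101 and 0.104). The call against CILP was lost without CILP replicate 2, 4, 5 or 6 or ILC2P replicate 2, 3, 4, 5 or 7 (adjusted p up to 0.0944). That against CLP was lost without CLP replicate 2, 4 or 5 or ILC2P replicate 2, 3 or 7 (adjusted p up to 0.0881).

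Rpl7a, a 60S protein, was the 1 member called higher in ILC2P. It was at 119.2, 0 and 459.1 CPM in ILC2P of batch 1 and at 0, 12.5, 1626.6, 0 and 0 CPM in batch 2. CILP libraries were at 130.6, 118.9 and 73.2 CPM and at 11.2, 17.1, 0 and 0 CPM. A single ILC2P library, replicate 3 with 26072 counts in all, carried the fitted log2 difference of 3.57 ± 1.01 (edgeR adjusted p 0.0235). Without it the difference was 0.49 against CILP (adjusted p 0.848) and -0.46 against CLP (adjusted p 0.836), and the 2.88 against CLP (adjusted p 0.027) also lost its call without CLP replicate 3 (adjusted p 0.0574). The number of members called dropped to 2 and 3 in the comparisons with CILP and CLP without ILC2P replicate 3, and to 2 in that with CILP without CILP replicate 4.

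**Figure D3:**
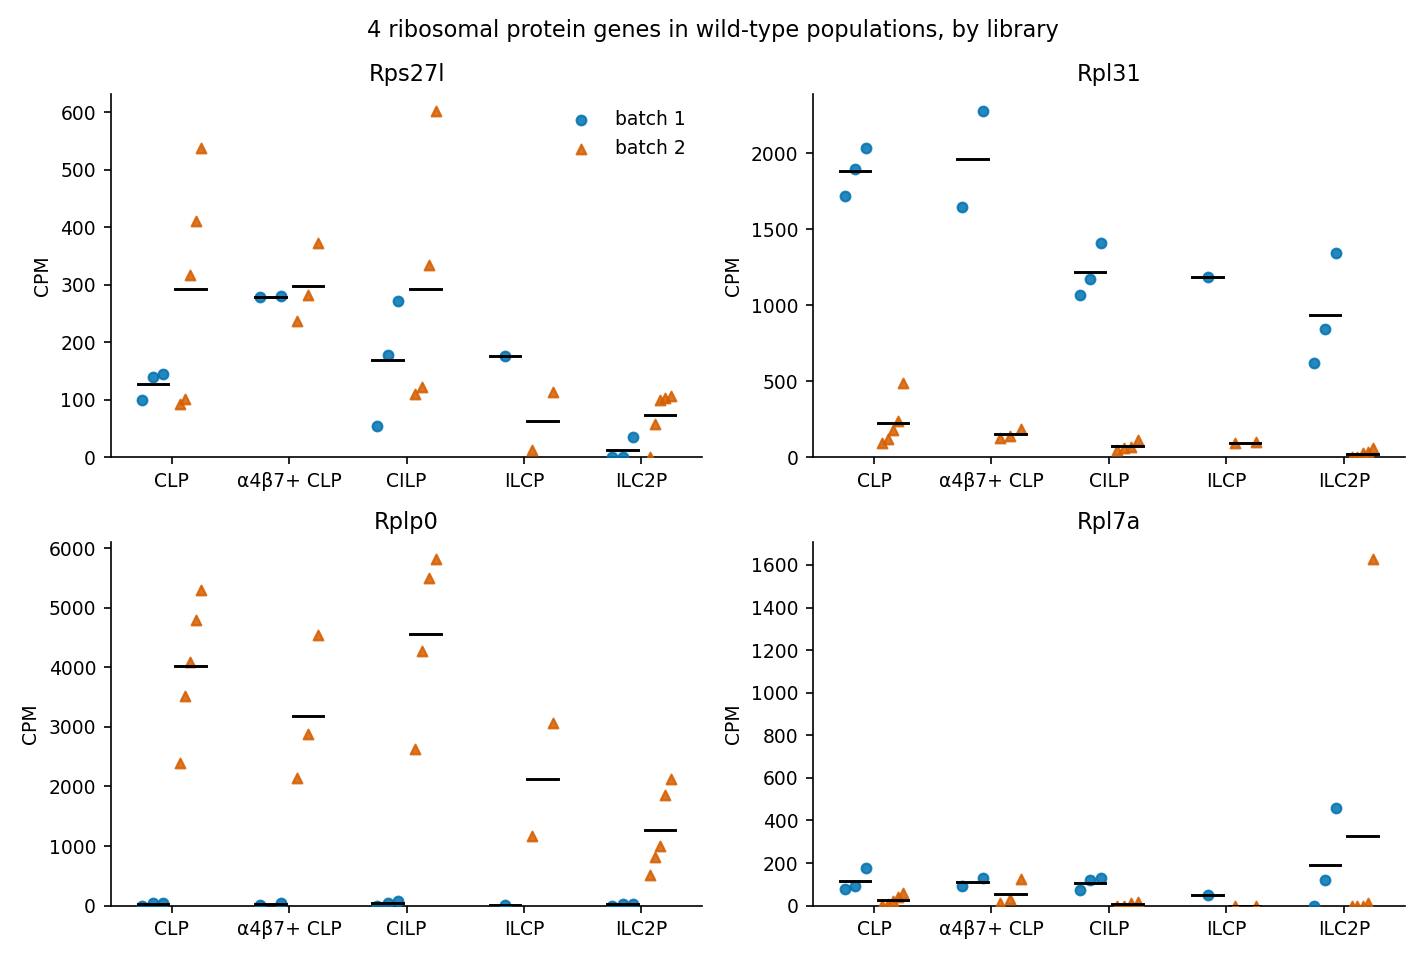
CPM (y axis) of Rps27l, Rpl31, Rplp0 and Rpl7a in each wild-type library of the 5 populations (x axis), marked by batch, with group means per batch as bars. ILC2P libraries lie below those of CLP and CILP for Rplp0 in batch 2 and below those of CLP for Rpl31 in each batch, and the high Rpl7a mean in ILC2P comes from 1 library.

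Between wild-type CILP and ILCP no member was called, where 0.374% of genes were. The members' median was -0.41 and that of all genes -0.27, with 3 members lower and none higher at an unadjusted p under 0.05 in edgeR. Rps26 was the nearest (-1.20 ± 0.47, adjusted p 0.325) and was the 1 member that DESeq2 called.

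Loss of Tcf7 went with a lower member share in CILP. The knockout comparisons share their wild-type libraries with those above. Tcf7 knockout CILP libraries were at 4.947 and 3.134% in batch 1 and 4.053 and 3.49% in batch 2, against 5.851 to 7.147% and 4.775 to 6.649% in the wild-type CILP libraries of those batches. Within each batch all knockout libraries lay below all compared wild-type ones, with a difference of the means of -2.642 points in batch 1 and -2.019 points in batch 2. The wild-type CILP library of batch 2 set aside as an outlier, at 3.179%, lay below both knockout libraries of that batch. The pooled difference was -2.267 points (pooled SD 0.8381), and leaving out any library kept it between -2.614 and -2.009 points. In batch 1, 68 members contributed a lower mean share and 10 a higher one, led by Rps24 (-0.2921 points) and Rpsa (-0.2845 points). In batch 2, 71 were lower and 16 higher, led by Rpl37rt (-0.2728 points) and Rplp0 (-0.2382 points), while Rplp2 was 0.2609 points higher. Most members thus had a lower mean share, with other genes leading in each batch. The matching split over all genes is not given here, and the fitted median of all genes was below 0 as well (-0.32 on the log2 scale). These counts alone do not set the members apart from genes at large.

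No single member passed the test in Tcf7 knockout CILP, where 0.501% of all genes were called. In edgeR 14 members had an unadjusted p under 0.05, all lower, and 78 of 86 were negative with a median of -0.70 on the log2 scale, against -0.32 for all genes. The shares of all genes at that level and with that sign are not given here, so these counts do not set the members apart. Rps20, a 40S protein, was the nearest (-1.27 ± 0.38, adjusted p 0.119). It was at 2540.0 and 1316.2 CPM in knockout and 4226.7, 4342.7 and 1572.9 CPM in wild-type CILP of batch 1, which overlap. In batch 2 it was at 259.9 and 652.9 CPM in knockout and 1628.4, 894.9, 2149.9 and 1335.9 CPM in wild type, without overlap. Rplp0 was at 1119.7 and 2256.6 CPM in the knockout libraries of batch 2, below all 4 wild-type CILP libraries given above (-1.73 ± 0.55, adjusted p 0.153). In batch 1 alone Rpsa was called lower, with 1416.8 and 569.2 CPM in knockout and 3846.8, 4230.8 and 2615.5 CPM in wild type. In batch 2 Rpsa had few counts and no lower level in the knockout (319.9 and 72.9 CPM against 37.2 to 79.3 CPM). DESeq2 called no member, and its size factors moved the median of all genes by 0.26 and left the members 0.33 below it.

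Other measures moved with the Tcf7 knockout CILP libraries. Mitochondrially encoded transcripts made up 0.9397 and 11.48% of their counts in batch 1 and 10.33 and 13.05% in batch 2, against 2.833 to 4.273% and 3.414 to 7.688% in wild type. With those counts left out of the total, member shares were 4.994 and 3.54% in batch 1 and 4.52 and 4.014% in batch 2, against 6.112 to 7.356% and 4.944 to 7.203%. The erythroid and megakaryocyte list was at 0.02976 to 3.705% in the knockout and 0 to 0.1523% in wild type, with 10 of 11 genes detected in the knockout and Pf4 at 0. Hba-a1 was called higher. The myeloid list was at 0 to 1.169% against 0.0006323 to 0.1606%, with 9 of 12 genes detected and the defining Mpo, Elane and Prtn3 at 0. The part of these in the member share was not tested beyond the shares without mitochondrial counts.

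In CLP the Tcf7 knockout shares were not lower. They were 6.782, 5.603 and 6.972% in batch 1 and 7.077 and 7.231% in batch 2, each above the wild-type CLP mean of its batch (5.57 and 6.491%). The groups overlapped in each batch, and the pooled difference of 0.5872 points was below the pooled SD of 0.8588. No gene at all was called in that comparison (0 of 10972, or 0%), and at an unadjusted p under 0.05 edgeR gave 355 genes higher and 358 lower. DESeq2 called 1. Among members, 1 was higher and 1 lower at that level, and the median was -0.12 as against -0.13 for all genes. The difference of the CILP minus CLP step between genotypes was tested in the same model. No member passed (0.0456% of all genes did), 10 members had a more negative step in the knockout at an unadjusted p under 0.05 in edgeR and none a more positive one, and the median over members was -0.61 against -0.20 for all genes. For the step, the share of all genes at an unadjusted p under 0.05 is not given here. Rpl35a was the nearest (-1.96 ± 0.76, adjusted p 0.363). This comparison and that within CILP share their CILP libraries. DESeq2 called no member for the step.

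In ILC2P both Tcf7 knockout libraries were of batch 2, at member shares of 1.884 and 4.649%, against 3.349, 6.508, 5.331, 6.286 and 6.689% in wild type. The first lay below all wild-type libraries and the second above the lowest of them, so the groups overlapped. The difference of the means was -2.496 points over all wild-type libraries and -2.366 points within batch 2. It was -1.114 points without knockout replicate 1 and -3.879 points without replicate 2. The library at 1.884% had 20.16% of its counts in the 8 plasma and mature B cell genes, against 0.08685% in the other and 0.004269 to 0.3337% in wild-type ILC2P. All 8 were detected, and Igha, Jchain, Igkc and Ms4a1 were among those called higher. This library also had 1.063% of its counts in the 12 myeloid genes and 0.8536% in the 11 erythroid and megakaryocyte genes, against at most 0.5331% and 0.1294% in wild-type ILC2P. The other library had 0.6614% in the 6 mature T cell genes, against at most 0.007649% in wild type. Trac, Cd3e, Cd4, Hbb-bs, Hba-a1, Hba-a2 and Ly6c2 were called higher as well, while Mpo, Elane, Prtn3 and Ctsg were at 0 in both libraries. The part of these lists in the share was not tested. No member was called, where 2.57% of all genes were, and 2 were higher and 3 lower at an unadjusted p under 0.05 in edgeR. The members' median was -0.15 and that of all genes 0.19, and with library totals these became -0.89 and -0.37. DESeq2 called 4 of the 80 members it tested (Rps24, Rpl22l1, Rps3a1 and Rps16), beside 115 genes higher and 41 lower of 5834. With DESeq2 size factors edgeR called 1 member, beside 208 genes higher and 5 lower of 10972.

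Id2 knockout CILP had the highest member shares of the compared libraries, 10.01 and 9.853%. Wild-type CILP libraries of the same batch were at 7.049, 7.147 and 5.851%, so the groups did not overlap and their means differed by 3.247 points. Over both batches the difference was 3.757 points (pooled SD 0.7981), and leaving out a library kept it between 3.524 and 3.92 points. Of the members, 66 had a higher mean share than in batch 1 wild type and 15 a lower one. The matching split over all genes is not given here. The 5 members with the largest gains added up to 1.729 points, among them Rplp1 (0.824 points), Rpl8 (0.2405), Rps20 (0.1926) and Rps29 (0.1551). Mitochondrial transcripts made up 0.3849 and 0.928% of these libraries, against 2.833 to 4.273% in wild type, and without them the member shares were 10.05 and 9.946% against 6.112 to 7.356%. The summed cell cycle list was at 0.778 and 0.4776%, against 0.1308 to 0.3074% in wild-type CILP of batch 1, and the erythroid and megakaryocyte list was at 0.2508 and 0.2622%, against 0 to 0.1523%, with 7 of 11 genes detected and Hba-a1 and Hbb-bs at 0. The mast cell, basophil and eosinophil list was at 0.6139 and 0.3068%, against 0.004732 to 0.5032%, with 5 of 7 genes detected and Prg2 and Epx at 0. The 6 CILP markers, which include Id2 itself, were at 0.06114 and 0.05173%, below the 0.4679 to 0.6341% of wild type, and none of them was called. Their sum is thus not independent of the genotype. The part of these measures in the member share was not tested.

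No member was called in Id2 knockout CILP, where 0.0911% of all genes were. In edgeR 4 members were higher and none lower at an unadjusted p under 0.05, 70 of 86 were positive, and the median was 0.45 on the log2 scale against -0.15 for all genes. The members stood 0.60 to 0.61 above the median of all genes under TMM, DESeq2 size factors and library totals. They stood 0.40 above it in batch 1 alone or with only the compared groups, and 0.13 above it without the batch term. DESeq2 called no member.

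In Id2 knockout CLP the shares were 6.193 and 6.824%, against 5.453, 5.252 and 6.005% in wild-type CLP of batch 1. Both lay above the 3 wild-type values, by 0.9379 points between the means. Over both batches the difference of 0.3621 points was below the pooled SD of 0.909, and it ran from 0.0466 (without knockout replicate 2) to 0.6776 points (without knockout replicate 1) when single libraries were left out. No member was called (0.0365% of all genes were), with 2 lower and none higher at an unadjusted p under 0.05 in edgeR, and DESeq2 called none. The difference of the CILP minus CLP step between Id2 knockout and wild type gave no member either, where 0.0365% of all genes were called. At an unadjusted p under 0.05 in edgeR 1 member was higher, Rps19 (3.91 ± 1.71, adjusted p 0.967), and the median was 0.59 over members and -0.04 over all genes. The single Id2 knockout ILCP library was at 6.905% and the wild-type ILCP library of its batch at 5.631%, which has no replicate check.

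**Figure D4:**
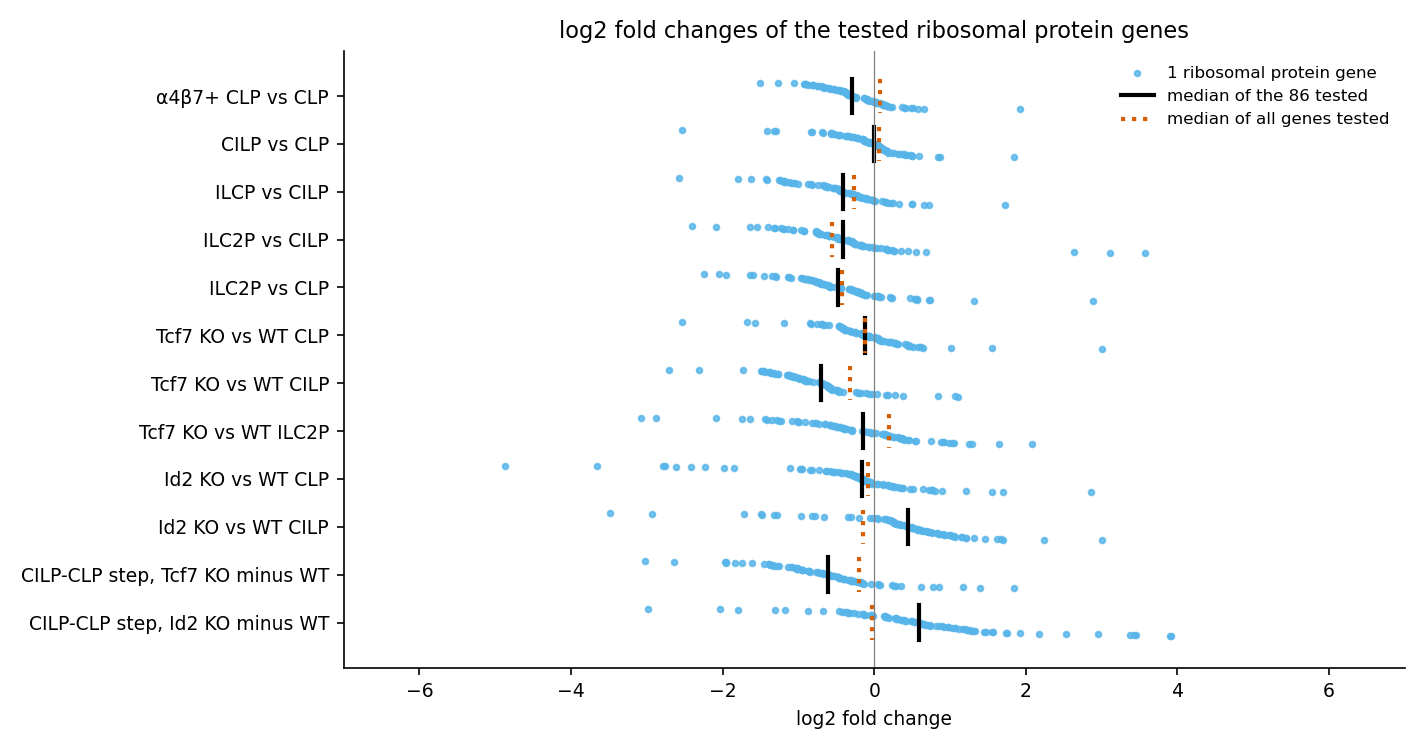
Log2 fold change of each of the 86 tested members (x axis, points) in the 12 fitted comparisons (y axis), with the median over members and over all 10972 genes as bars. The median of the members lies below the median of all genes for Tcf7 knockout CILP (-0.70 against -0.32) and above it for Id2 knockout CILP (0.45 against -0.15).

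The P stalk is the lateral arm of the 60S subunit that recruits elongation factors, built on Rplp0 and carrying Rplp1 and Rplp2. Rplp2 went with Rplp0 in its batch difference, at 199.83 ± 81.81 CPM in wild-type batch 1 (n = 12) and 3259.62 ± 978.78 CPM in batch 2 (n = 19). Rplp1 did not, at 2275.49 ± 1552.13 and 2674.25 ± 901.84 CPM. In Id2 knockout it was at 4933.0 and 9719.9 CPM in CLP, 9608.7 and 11726.8 CPM in CILP and 10174.1 CPM in ILCP. All 5 exceeded the highest wild-type library, which was at 4747.74 CPM. A Tcf7 knockout CLP library of batch 1, given below, also exceeded it and lay above the lower Id2 knockout CLP library. The fitted log2 difference was 2.24 ± 0.90 in CILP (edgeR p 0.0176, adjusted p 0.611) and 1.56 ± 0.91 in CLP (adjusted p 1), so neither was called. Without the low-count filter Rplp1 was called in CILP.

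Rplp1 varied widely in batch 1. It was at 2604.4, 903.7 and 2819.9 CPM in wild-type CLP, 61.9 and 3164.0 CPM in α4β7+ CLP, 3621.2, 118.9 and 2341.1 CPM in CILP, 4231.8 CPM in ILCP, and 155.0, 3648.4 and 3635.5 CPM in ILC2P. Tcf7 knockout CLP of that batch was at 5174.2, 33.4 and 4248.4 CPM. In 4 libraries of 4 different groups Rplp1 was thus at 155.0 CPM or less, and the next lowest library of the batch was at 903.7 CPM. No wild-type library of batch 2 was below 1663.08 CPM. The summed member share of those 4 libraries (5.564, 7.147, 5.648 and 5.603%) was within the range of the others.

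**Figure D5:**
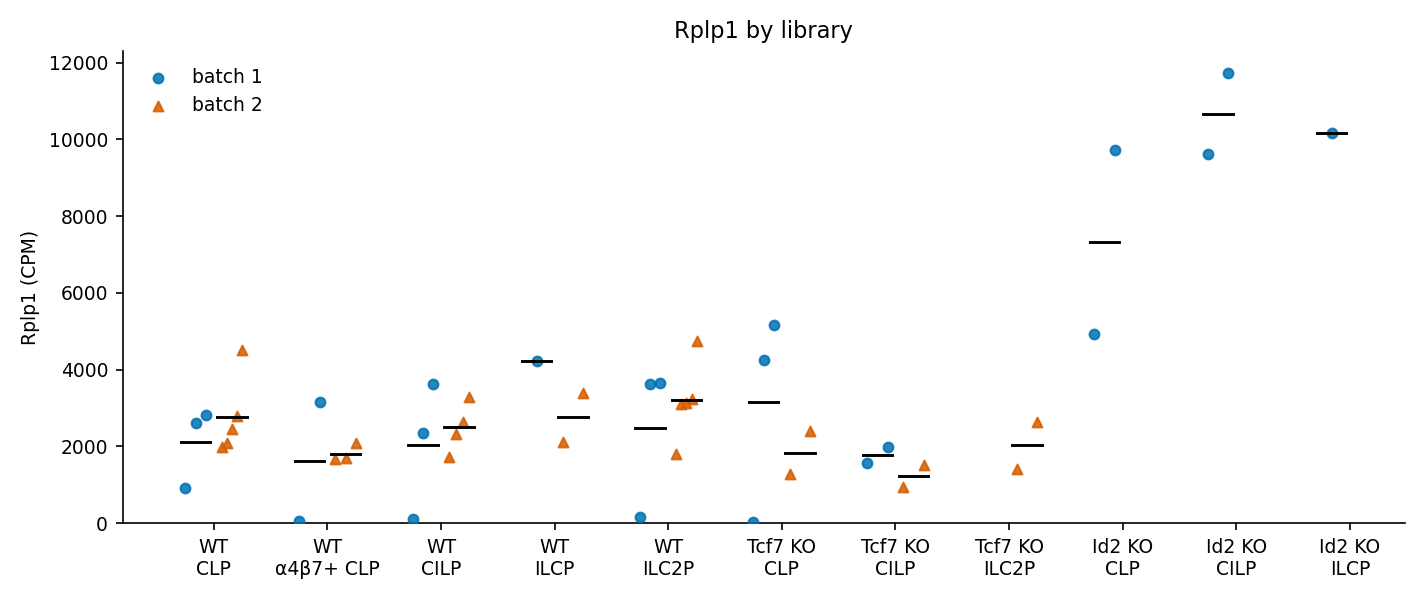
CPM of Rplp1 (y axis) in each compared library by population and genotype (x axis), marked by batch, with group means per batch as bars. The 5 Id2 knockout libraries lie between 4933.0 and 11726.8 CPM, and 4 libraries of batch 1 lie at 155.0 CPM or less.

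Among paralogues and copies with their parent genes, no member besides Rps27l and Rpl37rt passed the test between populations. Rpl22 was at 354.1 ± 61.6 CPM in CLP, 402.9 ± 131.0 CPM in CILP and 294.5 ± 141.6 CPM in ILC2P of batch 1 (n = 3 each). Rpl22l1, which can replace it, was at 36.97 ± 10.89, 34.99 ± 24.36 and 53.21 ± 15.11 CPM. In batch 2 Rpl22 was at 1621 ± 265 (n = 5), 1642 ± 896.6 (n = 4) and 850.9 ± 548.9 CPM (n = 5) and Rpl22l1 at 364.4 ± 178.5, 508.3 ± 314.1 and 248.1 ± 243.5 CPM. Neither was called between populations (for Rpl22 in ILC2P against CILP, -0.74 ± 0.38, adjusted p 0.23). Rpl36al was at 557.72 CPM and Rpl36a at 205.94 CPM in wild-type batch 1, and at 335.41 and 144.56 CPM in batch 2, without a call between populations. The testis-type Rpl39l had 59 wild-type counts and the muscle-type Rpl3l 7.

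Genes known for disease or signalling roles gave no call. Rps6, Rps19, Rps14, Rpl5, Rpl11, Rpsa and Rps27a were not called in any of the 12 comparisons of populations and genotypes, and the smallest adjusted p was 0.166, for Rpsa in ILC2P against CILP (-0.92 ± 0.41 in edgeR). Rps6 was at 62.79 ± 27.67 CPM over the 31 wild-type libraries, and its batch difference of 0.66 ± 0.52 on the log2 scale was not called. The other 6 of these genes were all called between batches, Rpl11 and Rpsa higher in batch 1 and Rps19, Rps14, Rpl5 and Rps27a higher in batch 2. Rpl11 and Rpl5, which bind Mdm2 together with the 5S ribosomal RNA, thus went opposite ways, at 1538.73 and 2.34 CPM in batch 1 and 127.46 and 61.02 CPM in batch 2. Fau, which encodes a ribosomal protein fused to a ubiquitin-like sequence and falls outside the rule on symbols, was called neither in these comparisons nor between batches (adjusted p 0.584).

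The machinery around the ribosome was read from lists chosen from general knowledge. In ILC2P against CILP, where 4.22% of all genes were called lower and 1.10% higher, none of 64 tested ribosome biogenesis genes was called higher and 2 were lower (Ddx21, a nucleolar helicase, -1.64, adjusted p 0.0302 in edgeR, and Grwd1), with a median of -0.59 against -0.55 for all genes. Among 27 elongation factors and other TOP genes 3 were lower (Vim, Snhg6 and Btf3) and none higher, with a median of -0.84 and all 27 negative. None of 18 RNA polymerase I, 26 initiation, 31 Myc and mTOR, or 72 mitochondrial ribosome genes was called. Of 35 cell cycle genes 4 were lower, among them the helicase subunit Mcm7 (-4.88, adjusted p 2.01e-06).

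Against CLP, where 8.0% of all genes were called lower and 3.46% higher, ILC2P had 4 of the 27 elongation and TOP genes lower: Vim, the poly(A) binding protein Pabpc1 (-1.32, adjusted p 0.00419 in edgeR), and the TOP host transcripts Gas5 (-1.09, adjusted p 0.0124) and Snhg6. The median of that list was -0.90. Of the 64 ribosome biogenesis genes 3, a smaller share than over all genes, were lower: Npm1 (nucleophosmin, -1.71, adjusted p 0.0276), Wdr12 and Ddx21. Of the initiation genes Eif5a and Eif2b1 were lower. In the Myc and mTOR list Rps6kb2 was higher and Mxd4, Rptor and Rheb lower. The cell cycle list had 16 of 35 genes lower and a median of -2.61, and the member median was -0.48. In CILP against CLP, where 1.97% of all genes were called lower, 7 cell cycle genes and Mycl were lower, and none of the biogenesis, polymerase I, elongation, initiation or mitochondrial ribosome genes was called.

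In the knockouts the same lists gave few calls. Tcf7 knockout CILP had 1, Cdk1 higher. Tcf7 knockout ILC2P had Vim, Pabpc1, Mxd4, Mxd1 and Plk1 higher, in the comparison that holds the library with 20.16% of plasma and mature B cell transcripts. Id2 knockout CLP and CILP had none. In Id2 knockout CILP the list medians were 0.55 for ribosome biogenesis, 0.73 for elongation and TOP genes, 0.58 for mitochondrial ribosomal proteins and 1.43 for the cell cycle, against 0.45 for the members and -0.15 for all genes. Between batches, 16 of 27 elongation and TOP genes (10 higher, 6 lower in batch 2), 13 of 64 biogenesis genes and 11 of 72 mitochondrial ribosomal protein genes were called, beside 63 of 86 members. With 8.27% of all genes called higher and 8.06% lower, the counts for biogenesis and mitochondrial ribosomal genes are near that background.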

How the data were processed

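The authors deposited unnormalized read counts for Entrez gene identifiers, with a separate table for each batch. The submitters' processing notes name CASAVA 1.8.2, featureCounts, limma, edgeR (3.8.2 and 3.22.0) and mouse build mm10. The aligner and the strand setting are not given in the sources used here. Symbols and coordinates came from RefSeq (GRCm38.p6, the assembly behind mm10). They covered 25275 identifiers (92.99%). Every value column was matched (0 unmatched).

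Of 70 samples, 4 technical repeats were added to 2 parent libraries. The 12 wells with spike-in RNA alone, 6 Nfil libraries and 1 CILP library labelled an outlier were not compared, which left 47 libraries. Replicate numbers follow accession order.

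Shares are summed member counts over all gene counts. edgeR 4.0.16 (R 4.3.3) fitted a mean per group plus batch: filterByExpr by group (10 counts, 15 in total), TMM, and a robust quasi-likelihood test with 35 residual degrees of freedom. Small groups borrow the spread of all groups. The filter left 10972 genes, the biological coefficient of variation was 109.7%, and adjusted p-values (Benjamini-Hochberg) cover all of them, with calls under 0.05. CPM values use TMM-scaled totals. The procedure was checked on simulated data with a common spread for all genes. The planted changes were larger than most of those called for members between populations, so the check does not cover smaller ones. Alternatives were DESeq2 1.42.0, its size factors (resting on 382 genes without a 0, 33 of them members), library totals, scaling without members, no low-count filter, a fit without batch, fits of each batch or of only the groups compared, the outlier included, the 2 libraries below 20% of the median total of their batch excluded, and single libraries excluded in turn. Shares were also recomputed without mitochondrial counts, with other member lists, with repeats not added, and as means of batch differences.

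The members and lists were chosen with earlier results of these data known. Named members were up to 6 called in each direction per comparison, the 6 highest and 3 lowest by wild-type CPM, paralogue pairs, the P stalk, 7 genes of known roles, Fau, and up to 3 genes per list. Some genes that this rule names are not reported here. Members named for their batch difference were chosen after seeing it.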

Additional observations from a re-analysis of the deposited data

Results flagged for a closer look

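In groups of 4 to 10 libraries, 60 sets of values were searched for a library standing apart, and chance marks about 1 in 20. Wild-type ILC2P replicate 1 had the lowest member share of its group, 3.349%, with 19322 counts in all and 23.59% of them mitochondrial. Wild-type α4β7+ CLP replicate 2 was lowest at 3.487%, with 514307 counts. Tcf7 knockout CLP replicate 4 was lowest at 5.603%, and it is also the library with 33.4 CPM of Rplp1. Rpl7a in wild-type ILC2P replicate 3 was highest at 1627 CPM. Rps27l in Tcf7 knockout CILP replicate 2 was highest at 355.0 CPM, with the knockout CILP libraries of batch 1 at 25.5 and 35.6 CPM.

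The mean deviations of the Tcf7 knockout had opposite signs in its populations. Measured from the wild-type mean of the same batch, the member share was 0.7944 points higher on average in CLP (5 of 5 libraries above), and its deviation was -2.33 points in CILP (4 of 4 below) and -2.366 points in ILC2P (2 of 2 below). In CLP and ILC2P the knockout range overlapped that of wild type in the same batch. Of the ILC2P libraries, the one with 20.16% of plasma and mature B cell transcripts deviated by -3.748 points and the other by -0.983 points. The difference of these shares between populations was not tested.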

How the results depend on the processing

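No paired analysis was possible because replicate numbers follow accession order and tie no samples across groups. Under 5 other ways of computing the member share, each of its 10 differences moved by less than 1 pooled SD. Leaving out single libraries moved it by more in Tcf7 knockout ILC2P alone (-3.879 to -1.114 points). Small differences still changed several fold: CILP minus CLP ran from -0.1638 to 0.2597, ILCP minus CILP from -1.503 to -0.3632, ILC2P minus CILP from -0.6427 to -0.06481, ILC2P minus CLP from -0.5735 to -0.03808 and Id2 knockout CLP from 0.0466 to 0.6776 points. Counts of members called moved more. For CILP against CLP the count of 1 became 0 with library totals, no filter, no batch term or either batch alone, and was 0 to 1 when libraries were left out. For ILC2P against CILP the count of 4 became 1 with DESeq2 size factors, library totals, no batch term, either batch alone or shallow libraries left out, 0 with only the compared groups and 2 with DESeq2, and was 2 to 4 when libraries were left out. For ILC2P against CLP the count of 7 became 4 with DESeq2 size factors, 3 with library totals or shallow libraries left out, and 1 with no batch term, either batch alone or only the compared groups, and was 3 to 7 when libraries were left out. Counts of 0 became 1 for ILCP against CILP (DESeq2), Tcf7 knockout CILP and its step from CLP (batch 1 alone), Id2 knockout CILP (no filter) and Tcf7 knockout ILC2P (DESeq2 size factors; 4 with DESeq2). Fits of 1 batch or of the compared groups hold fewer libraries and genes, and for the other settings the cause was not tested. Rpl7a in ILC2P against CLP reversed to -0.32 with shallow libraries left out and ran from -0.46 (without ILC2P replicate 3) to 3.16 when single libraries were left out. Members called between batches stayed within 1.5 times the count of 63 under all 7 alternatives run. Depth limits the rest: members near 0 CPM in 1 batch could be compared in the other alone.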

Other observations

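Libraries outside the comparisons gave the following member shares. The 2 libraries labelled Nfil CLP were at 7.38 and 7.57%, and Nfil ILC2P at 6.68 and 5.20%, in batch 2. The submitters state for Nfil that the knockout did not succeed. Of the Nfil CILP libraries 1 was at 0.991%, with 31.8% mitochondrial counts, and the other held 296 counts in all. The CILP library called an outlier was at 3.18%. The 60S to 40S ratio was 1.41 to 1.70 in the 5 Nfil libraries that gave one and 1.75 in the outlier.

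Technical repeats of 1 library show how far the share moved without a change of cells. The parent CLP library was at 6.479% and its repeats at 5.189 and 6.145%, and the parent CILP library was at 6.554% and its repeats at 5.792 and 6.003%. Their 95% Wilson intervals did not overlap between CLP parent (6.344 to 6.617%) and the first repeat (4.910 to 5.482%), so repeats of the same library differed by more than counting error.

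The 12 wells with spike-in RNA alone held 51 to 9439 gene counts, 0.633 to 16.59% of them from members (median 3.954%).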
